A study of Mus musculus with 8 samples.

Results

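NA1a is a subtype of noradrenergic neurons of the mouse stellate ganglion, named here for its high *Npy* and *Gal*. Its members were taken as the authors' own subtype annotation gives them, with no selection by any value computed here, and they were 316 of 1303 neurons (24.3%). The study sequenced single cells of stellate ganglia by droplet capture from C57BL6/J mice of 1 condition, 8 to 10 weeks old, in which an adeno-associated virus coding for GFP had been injected into the heart and one coding for tdTomato into the front paws. Left and right ganglia were combined before dissociation, so the side of a neuron is not known, and the protocol speaks of 16 ganglia put together while the samples are labelled by mouse. Of the 8 mouse names in the annotation, 5 each matched 1 labelled sample and are called replicates 1 to 5 (1002 neurons), while 3 did not match a single sample. The 301 neurons of those 3 entered no fit and no mean over mice, and their values are given pooled or by name. The paper places all 5 matched mice in 1 batch and its other 3 mice in another. Whether the 3 unmatched names are of that other batch is not settled by their labels. With no treatment arm, the comparisons are of NA1a with other neurons of the same mice. One is with all 987 other neurons together. The others are with the noradrenergic subtype NA2 (175 neurons), with Ach1 (64) and Ach2 (62), which the authors call cholinergic, and with the glutamatergic subtype Glut (37).

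Postganglionic sympathetic neurons of the stellate ganglion supply the heart, the lungs and the forelimb and release noradrenaline, which is made from tyrosine by tyrosine hydroxylase, aromatic amino acid decarboxylase and dopamine beta-hydroxylase and loaded into vesicles by the vesicular monoamine transporter. Many of them also hold neuropeptide Y, which is released with noradrenaline during strong activity, constricts blood vessels and acts on parasympathetic terminals, and galanin, a peptide known to slow vagal acetylcholine release in the heart and to increase in sympathetic neurons after injury. Both peptides are cut from larger precursors by prohormone convertases inside dense-core vesicles.

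The 5 genes that mark NA1a here were *Npy*, *Gal*, *Pcp4* (a small calmodulin-binding protein), *Rxfp1* (the relaxin receptor) and *Epha5* (an ephrin receptor of axon guidance). *Npy* lies on chromosome 6 of GRCm38 at 49822710 to 49829507 on the plus strand, in 4 exons, and *Gal* on chromosome 19 at 3409915 to 3414544 on the minus strand, in 6 exons. *Pcp4* spans 58.2 kb of chromosome 16 (96467606 to 96525793, plus strand), *Rxfp1* 96.3 kb of chromosome 3 (79641611 to 79737880, minus strand) and *Epha5* 362.6 kb of chromosome 5 (84054761 to 84417382, minus strand). The 250 bases before the annotated start of the pair of peptide genes are shown because their levels over the subtypes were alike. The sequences are from RefSeq on GRCm38.p6, 5′ to 3′ on the strand of the gene, at chr6:49822460-49822709 (+) for *Npy* and chr19:3414545-3414794 (-) for *Gal*, with the letters GGGCGG of the GC box in capitals.
Npy: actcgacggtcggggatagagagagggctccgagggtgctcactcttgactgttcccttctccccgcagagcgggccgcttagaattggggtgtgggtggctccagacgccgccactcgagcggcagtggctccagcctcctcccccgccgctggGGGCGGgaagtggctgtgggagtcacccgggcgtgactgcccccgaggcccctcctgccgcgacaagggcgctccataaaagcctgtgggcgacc
Gal: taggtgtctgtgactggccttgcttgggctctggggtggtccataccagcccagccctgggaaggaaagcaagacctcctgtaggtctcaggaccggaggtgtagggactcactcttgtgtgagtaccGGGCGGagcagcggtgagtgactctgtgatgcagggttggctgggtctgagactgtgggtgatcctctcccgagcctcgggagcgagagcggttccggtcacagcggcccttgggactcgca
Each held 1 GC box, which 32.7% of 32851 promoter windows of that length in the same table held on either strand. Neither held TGACG (the core of the cyclic AMP response element, in 17.8% of windows), TGACGTCA (the full element, which contains it, in 1.55%), TATAAA (12.4%) or TGANTCA (AP-1, in 6.75%), searched on both strands, which says only that these letters are not in these windows. The *Epha5* window held 2 GC boxes and the *Pcp4* window none of the letters searched.

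The label was checked against genes of the transmitters. A UMI, 1 counted RNA molecule, of *Th* (tyrosine hydroxylase) was present in 286 of 316 NA1a neurons (90.5%), of *Slc18a2* (the vesicular monoamine transporter) in 97.8% and of *Prph* (peripherin, the intermediate filament of peripheral neurons) in all 316. *Chat* (choline acetyltransferase) and *Slc17a6* (a vesicular glutamate transporter) had a UMI in 0 of 316, which allows a share of up to 0.949% of neurons with a UMI. The cholinergic *Slc18a3* and *Slc5a7* had one in 4 and 6 neurons. *Th* had a UMI in 75.7% of Glut and 43.5% of Ach2 neurons too, at medians of 3285 and 4414.5 UMIs against 6524.5 in NA1a, and *Slc18a2* in 75.7% and 35.5%, so detection of these genes alone does not check the label. *Chat* was detected in 32.3% of Ach2 and *Slc17a6* in 13.5% of Glut neurons. In Ach1, at a median of 2206.5 UMIs, *Chat* had a UMI in 0 of 64 neurons, *Slc5a7* in 1 and *Slc18a3* in 6. *Th* had one in 82.8% and *Slc18a2* in 90.6% of them. The peptide gene *Vip*, also a cholinergic marker, went the other way, with a UMI in 62.5% of Ach1 and 12.7% of NA1a neurons. *Chat* was also missed in most Ach2 neurons, which were read more deeply. These genes do not settle whether Ach1 was cholinergic. NA1a against Ach1 is therefore not read here as a contrast of noradrenergic with cholinergic neurons.

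Before any comparison, 3 features of these libraries apply. The first is that 21 cell barcodes occurred in more than 1 library, in 73 neurons, and 20 of them carried the same subtype in every library. None of those neurons was NA1a, but 55 of the 175 NA2, 15 of the 62 Ach2 and 3 of the 37 Glut neurons were, so the numbers of genes that passed against NA2 and Ach2 are also given without them, while the pooled Glut values hold them. The second is that NA1a neurons were read more deeply. Their median UMIs per neuron in replicates 1 to 5 were 9045.5, 9470, 6182.5, 8678 and 8122, against 2403, 2608.5, 3676, 2607 and 4544 in the other neurons of the same mice, a mean 2.67-fold difference with NA1a higher in 5 of 5 mice and no overlap (exact sign-flip permutation test over mice, two-sided p = 0.0625, the smallest that 5 mice allow). Single subtypes could exceed NA1a, as NA1b did in replicates 3 and 4 (medians of 6300 and 9223) and NA3 in replicate 2 (14025). The last is RNA quality. The median mitochondrial share of UMIs in NA1a was 1.82%, 1.33%, 1.60%, 0.985% and 5.82% in replicates 1 to 5, so replicate 5 stood apart from the others. Other neurons ranged from 3.22% to 5.97%. Values below were therefore also computed with every neuron thinned to 2000 UMIs, which kept 308 of 316 NA1a and 765 of 987 other neurons.

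NA1a formed 23.5% of the neurons of replicate 1 (40 of 170, exact 95% interval 17.4 to 30.6), 11.5% of replicate 2 (27 of 235, 7.71 to 16.3), 30.3% of replicate 3 (50 of 165, 23.4 to 37.9), 17.9% of replicate 4 (42 of 235, 13.2 to 23.4) and 11.7% of replicate 5 (23 of 197, 7.55 to 17.0). The mean was 19.0% ± 8.06 (SD, n = 5 mice), and 23.0% ± 10.5 among neurons with at least 2000 UMIs. Replicates 2 and 5 were low and replicate 3 high, with intervals of replicates 2 and 3 that did not overlap. In the 3 unmatched names the share was 26.7% (16 of 60), 31.4% (22 of 70) and 56.1% (96 of 171), so the last of these names alone held more NA1a neurons than any matched mouse. The intervals cover counting error only, and since single cells were captured after dissociation, the share describes captured neurons and not the ganglion.

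NA1a had the highest *Npy* of the 8 subtypes. Its mean level in NA1a was 77.6, 87.8, 93.3, 80.6 and 72.5 UMIs per 10000 in replicates 1 to 5 (82.4 ± 8.26, SD, n = 5), against 25.99 to 33.4 in the other neurons of those mice (28.5 ± 2.86). All 5 NA1a values lay above all 5 others, and *Npy* was 2.88-fold higher (log2 difference 1.53, SE 0.17, limma adjusted p = 1.115e-06). The authors drew the subtypes from these same neurons, so here and below a test says how steady a difference was over mice and is no independent evidence that the subtype exists. Of 3882 genes tested against all other neurons, 579 (14.9%) passed an adjusted p of 0.05, which all 5 markers did.

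*Gal* was 22.1, 12.96, 37.9, 27.2 and 15.1 UMIs per 10000 in the NA1a neurons of replicates 1 to 5 and 5.02 to 12.0 in the others. Replicate 3 was high and replicates 2 and 5 low, but every NA1a value exceeded every other value (23.0 ± 10.0 against 7.89 ± 2.53, log2 difference 1.48, SE 0.17, limma adjusted p = 1.18e-06). *Pcp4* had the largest fold difference of the 5 markers. It was 8.33, 5.57, 9.83, 6.12 and 4.48 UMIs per 10000 in NA1a and 1.17 to 1.72 in the others, 4.22-fold higher with no overlap (log2 difference 2.08, SE 0.18, limma adjusted p = 1.5e-08). *Rxfp1* was 4.40, 6.47, 6.64, 6.30 and 5.58 against 1.68 to 2.97 (log2 difference 1.39, SE 0.18, limma adjusted p = 7.59e-06). *Epha5* was 17.4, 16.2, 28.3, 24.8 and 21.5 against 5.96 to 9.06 (2.83-fold higher, limma adjusted p = 1.18e-06), again with groups that did not overlap. All 5 differences also passed after thinning, after centring each profile on its median gene, without the shared barcodes and in every fit that left out 1 mouse.

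In the neurons of the 3 unmatched names, which entered no fit, the pooled *Npy* level was 41.6 UMIs per 10000 in 134 NA1a neurons and 19.1 in 167 others. By name it was 81.4, 31.0 and 37.4 in NA1a, so only 1 of the 3 names reached the range of the matched mice. *Gal* was 16.0 against 6.30, *Pcp4* 3.76 against 0.820, *Rxfp1* 3.85 against 1.51 and *Epha5* 16.2 against 5.23. Of the 579 genes called in the matched mice, 546 (94.3%) differed in the same direction in these neurons, which is a description with no test.

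**Figure D1:**
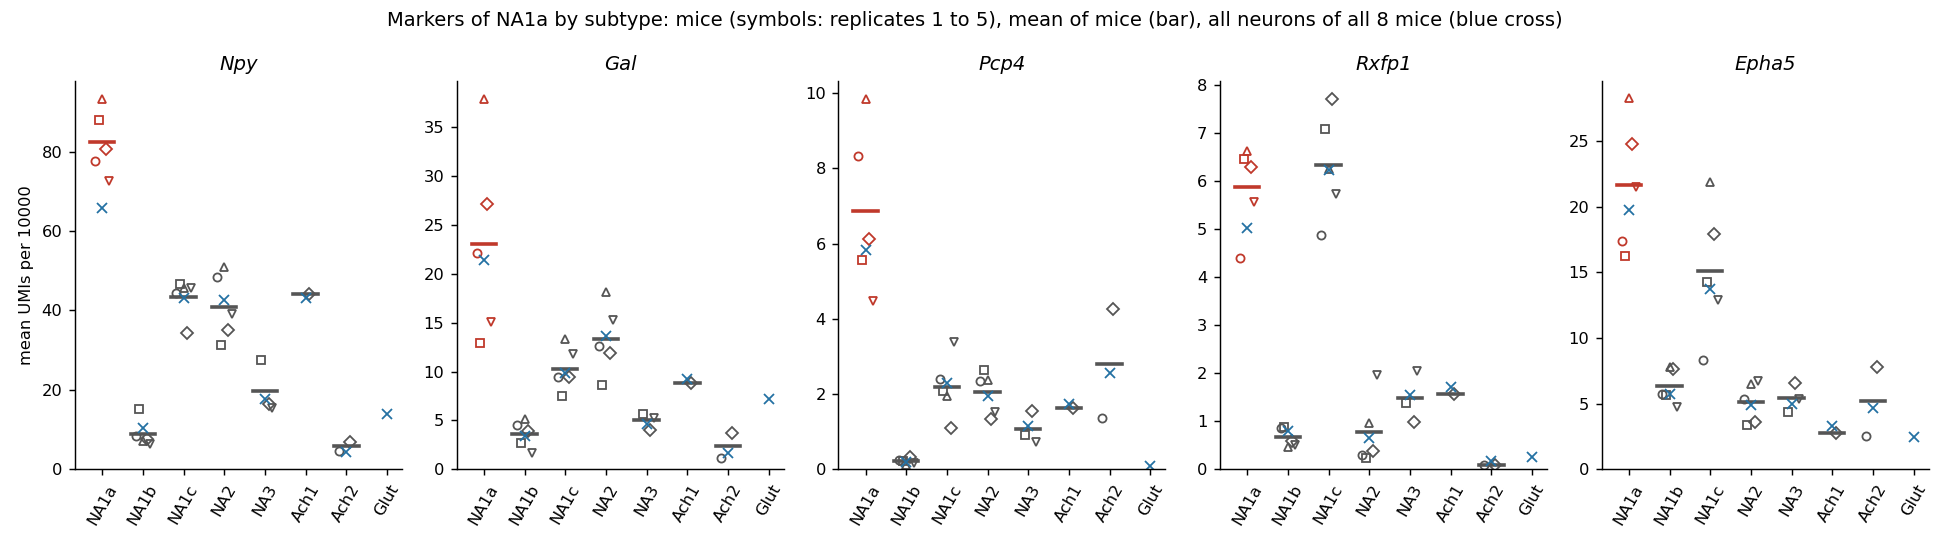
Mean level of *Npy*, *Gal*, *Pcp4*, *Rxfp1* and *Epha5* (vertical axes, UMIs per 10000) in each subtype (horizontal axes). Symbols are mice with at least 10 neurons of the subtype, bars are means of mice and blue crosses are all neurons of all 8 mice: NA1a was highest for each gene except *Rxfp1*, where NA1c (6.34 ± 1.11) and NA1a (5.88 ± 0.921) overlapped.

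Over the subtypes with at least 10 neurons in some mouse, the mean *Npy* level was 82.4 ± 8.26 UMIs per 10000 in NA1a, 44.1 in Ach1 (1 mouse), 43.3 ± 5.11 in NA1c, 40.9 ± 8.45 in NA2, 19.8 ± 6.74 in NA3, 8.95 ± 3.61 in NA1b and 5.77 ± 1.62 in Ach2 (2 mice). NA1c and NA2, neighbours in this order, differed by less than their spread. Against NA1c, the subtype nearest to it over the 5 markers, NA1a was higher in *Npy* by 0.93 on the log2 scale (SE 0.19, limma adjusted p = 0.00184), in *Gal* by 1.07 (SE 0.23, adjusted p = 0.00413) and in *Pcp4* by 1.63 (SE 0.29, adjusted p = 0.000551). Not all of these held in other settings: *Gal* missed the threshold when thinned (limma adjusted p = 0.0512) and without the filter on low values (0.0605), *Npy* on summed UMIs (0.110), and all 3 with a minimum of 5 neurons a profile (0.0626 to 0.380). *Rxfp1* did not pass (log2 difference -0.10, SE 0.30, adjusted p = 0.905), with 4.89 to 7.71 UMIs per 10000 in NA1c and 4.40 to 6.64 in NA1a, and neither did *Epha5* (0.56, SE 0.20, adjusted p = 0.117). In that comparison 310 of 7095 genes (4.37%) passed, 3.13% higher and 1.24% lower. In 5 of 5 markers NA1a was higher than NA1b, where 247 genes (3.48%) passed, 2.28% higher and 1.2% lower, and than NA3, where 1262 (17.8%) passed, 10.1% higher and 7.68% lower. The log2 differences from NA1b ranged from 1.75 for *Epha5* to 4.42 for *Pcp4*.

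The genes most like *Npy* over the 8 subtypes, by the correlation of pooled levels among 3614 genes, were *Nt5dc2* (r = 0.969), *Kcnmb4* (0.956), *Fst* (0.953), *Gal* (0.953) and *Bub3* (0.890). *Kcnmb4* codes for the beta4 subunit of the large-conductance calcium-activated potassium channel and *Fst* for follistatin, which binds activin. *Fst*, *Bub3*, *Scg2* (secretogranin) and *Nt5dc2* were also most like *Gal*, besides *Npy*. These correlations are over 8 points that share libraries and differ in depth, and carry no p. *Kcnmb4* was 2.14 ± 0.720 UMIs per 10000 in NA1a against 1.28 ± 0.178 in all others (limma adjusted p = 0.0269), with replicate 5 at 0.976, below every value of the others, and did not pass when thinned (adjusted p = 0.143).

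Single NA1a neurons varied in their peptides. *Npy* per neuron had quartiles of 24.4, 62.3 and 97.6 UMIs per 10000 and reached 197, and *Gal* had quartiles of 7.42, 16.0 and 30.8 and reached 95.2. A *Npy* UMI was present in 305 of 316 NA1a neurons (96.5%), in 100% of NA1c neurons at a median of 2685 UMIs and in 59.5% of the Glut neurons at a median of 3285, so presence alone separates the subtypes poorly. *Gal* was detected in 92.7% of NA1a neurons (45.9% of Glut), *Rxfp1* in 82.3% (6.45% of Ach2, at a median of 4414.5), *Epha5* in 96.2% and *Pcp4* in 65.5% (5.41% of Glut). The 11 NA1a neurons without a *Npy* UMI had a median of 3416 UMIs, against 6524.5 for all NA1a neurons, and 9 of them came from the unmatched names. The 23 without a *Gal* UMI had a median of 2966, and 7 neurons lacked both.

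All 5 markers were detected together in 188 of 316 NA1a neurons (59.5%), in 31.4% of NA1c neurons and in 12.5% of all other neurons. At 2000 UMIs per neuron these shares were 27.6%, 17.0% and 5.23%. By mouse the unthinned share of NA1a was 72.5%, 74.1%, 76.0%, 73.8% and 60.9% in replicates 1 to 5 (71.5% ± 6.05, and 35.6% ± 7.24 thinned), lowest in replicate 5. It was 87.5%, 36.4% and 35.4% in the 3 unmatched names. At least 3 of the 5 were present in 84.7% of thinned NA1a and 88.5% of thinned NA1c neurons, so NA1a and NA1c had like shares by that measure.

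**Figure D2:**
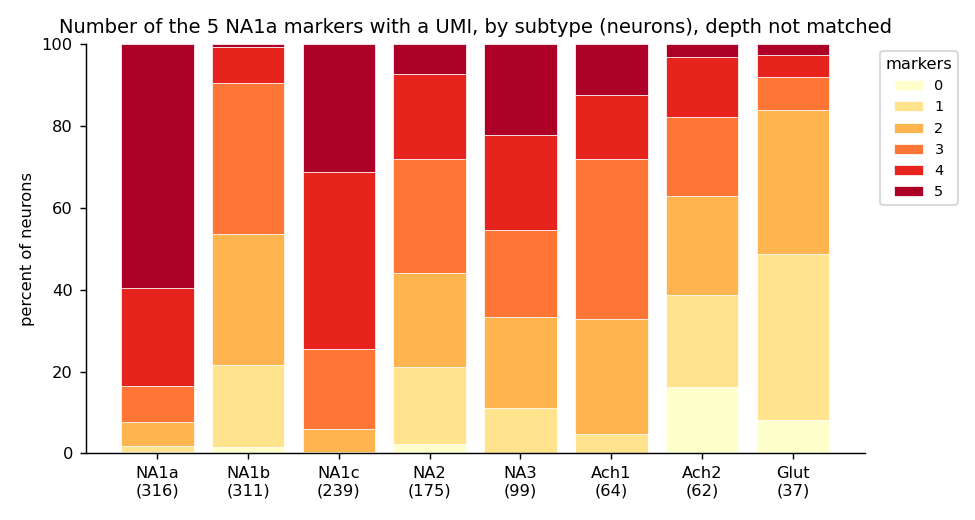
Percent of neurons (vertical axis) of each subtype (horizontal axis, number of neurons in brackets) with a UMI of 0 to 5 of the markers *Npy*, *Gal*, *Pcp4*, *Rxfp1* and *Epha5* (colours). All 5 were present in 59.5% of NA1a and 31.4% of NA1c neurons, and in 0.643% of NA1b neurons.

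Within NA1a, the markers did not vary as 1 block. Over the neurons of a mouse (23 to 50), *Npy* followed *Pcp4* with a mean r of 0.481 ± 0.132 (SD over 5 mice, 0.298 thinned) and *Gal* followed *Epha5* with 0.398 ± 0.232 (0.373 thinned). *Npy* and *Gal* themselves had a mean r of 0.390 ± 0.174, which was 0.162 when thinned, and *Npy* and *Rxfp1* one of 0.1001 ± 0.116. These are descriptions across neurons of the same library that share its depth, with no p. The correlation with a neuron's UMIs was 0.263 for *Npy* and 0.371 for *Gal*. *Sctr*, the secretin receptor, followed *Npy* with a mean r of 0.411 ± 0.254 (0.302 thinned), but ranged from 0.103 to 0.690 over the mice.

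Against all other neurons, 273 genes (7.03% of those tested) were higher and 306 (7.88%) lower in NA1a, and 1133 had an unadjusted p under 0.05. The 10 largest differences upward were *B430010I23Rik* (log2 difference 2.15), *Pcp4*, *Tnfrsf23* (1.85), *Igf2bp3* (1.67), *Timp4* (1.62), *Rbm4b* (1.58), *Npy*, *Cntn5* (1.52), *Gm26699* (1.51) and *Epha5*. *Tnfrsf23*, a decoy receptor of the TRAIL ligand, was 0.455, 0.694, 0.880, 1.46 and 1.78 UMIs per 10000 in NA1a and 0.0883 to 0.619 in the others, so the groups overlapped between mice although NA1a was higher in each. *Timp4*, an inhibitor of matrix metalloproteinases, was 1.36 to 2.13 against 0.241 to 0.986, without overlap (limma adjusted p = 5.62e-06). *Cntn5*, a contactin of axon adhesion, was 2.78, 2.71, 2.44, 1.17 and 3.26 against 0.507 to 1.29, with replicate 4 low and inside the range of the others (limma adjusted p = 7.33e-06). The RNA-binding proteins *Igf2bp3* (1.13 ± 0.345 against 0.288 ± 0.116) and *Rbm4b* (1.65 ± 0.290 against 0.502 ± 0.182) did not overlap with the others, but *Igf2bp3* did not pass when thinned (adjusted p = 0.0811). *B430010I23Rik* was 1.13 to 2.81 against 0.238 to 0.380. Its values in the others all lay under the filter of 0.5, so it was tested only because of its level in NA1a. The direction of its call was therefore set by the filter. The same holds for *Igf2bp3*, whose values in the others also lay under 0.5. *Gm26699*, at 0.526 to 1.39 in NA1a, could likewise enter through NA1a alone.

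**Figure D3:**
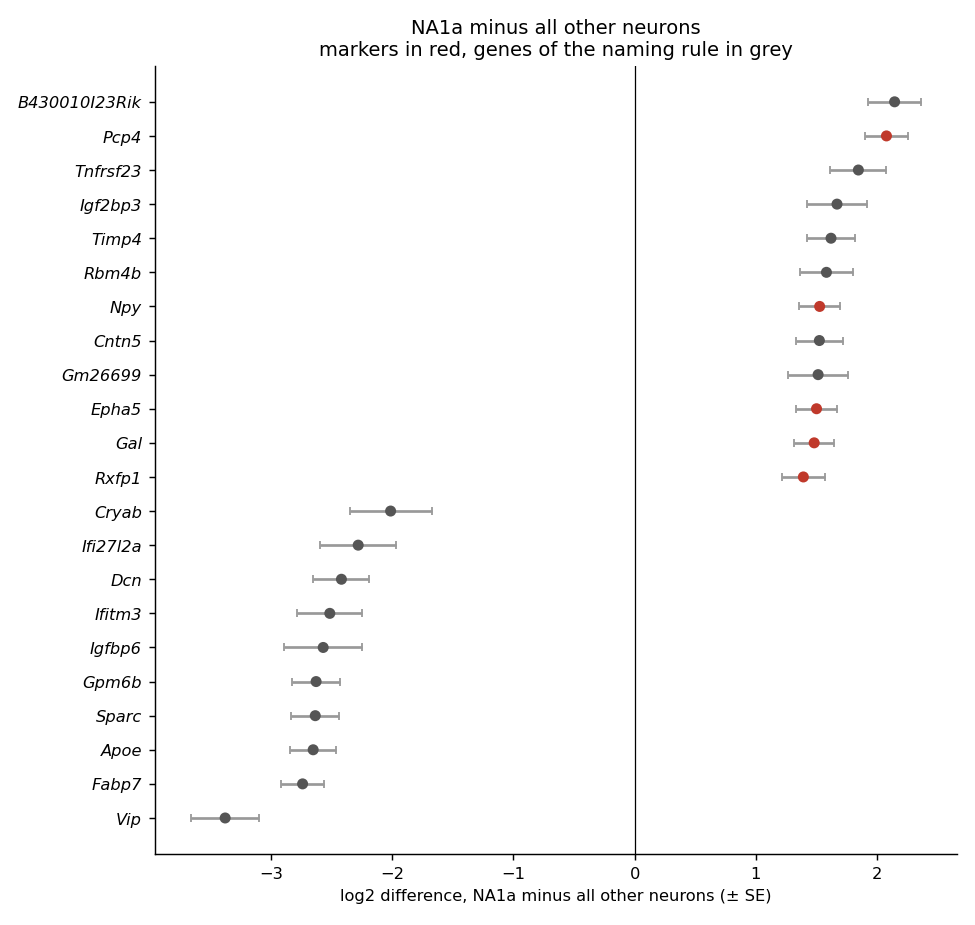
Log2 difference of NA1a from all other neurons of the same mice (horizontal axis, points, with SE as bars) for the 5 markers in red and the other genes with the largest differences in each direction in grey (vertical axis). The differences ran from 2.15 for *B430010I23Rik* to -3.38 for *Vip*.

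The 10 largest differences downward were *Vip*, *Fabp7*, *Apoe*, *Sparc*, *Gpm6b*, *Igfbp6*, *Ifitm3*, *Dcn*, *Ifi27l2a* and *Cryab*, with log2 differences from -3.38 to -2.01. *Vip*, a peptide of cholinergic sympathetic neurons, was 0.0325 to 2.12 UMIs per 10000 in NA1a and 1.39 to 6.89 in the others, so the groups overlapped. The highest NA1a value was that of replicate 1, where 1 of 40 neurons held 11 *Vip* UMIs and the level without it was 0.571. Without the neurons that share a barcode *Vip* was too low to be tested. *Fabp7* and *Apoe*, lipid carriers of satellite glia, were 0.398 to 1.70 and 3.44 to 5.24 in NA1a against 3.26 to 12.6 and 20.1 to 35.0 in the others, without overlap.

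The lower genes moved with markers of other cell types. Of the 15 satellite glia genes, 8 could be tested and 7 were lower in NA1a, with a median log2 difference of -2.23 beside -0.02 over all genes tested. Their summed level per mouse was 16.8 to 20.1 UMIs per 10000 in NA1a and 51.1 to 80.6 in all others, of which NA3 had 238.4 to 465.4 and Ach1 150.5, while NA1b, NA1c, NA2 and Ach2 lay between 10.1 and 36.2. Of 10 fibroblast genes, 4 were tested and all 4 were lower, with sums of 1.53 to 2.53 in NA1a against 5.65 to 23.5 in the others. Genes this low in NA1a could enter the test through the other neurons alone, which favours calls of lower. None of the 15 glial or 10 fibroblast genes was at 0 in NA1a. Without NA3 and Ach1 among the other neurons, a setting chosen after the data were seen, 406 genes passed (181 higher and 225 lower) and 0 of 5 satellite glia genes that could be tested did, while both of the fibroblast genes that could be were still lower (2 of 2, median -0.68). *Apoe* then differed by -0.30 (limma adjusted p = 0.353) and *Fabp7* by -0.56 (adjusted p = 0.114), while *Npy* stayed at 1.54 and *Pcp4* at 2.06. The part of RNA from glia or fibroblasts in these differences was not tested otherwise.

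Immediate-early and injury genes showed the same pattern. Of 27 genes listed, 12 were tested, 8 were lower and 1 was higher, with a median of -0.75, where 7.88% of all genes tested were lower. *Fos*, a transcription factor induced by activity and by dissociation, was 0.310 to 1.43 UMIs per 10000 in NA1a and 1.31 to 4.85 in the others, and pooled over all neurons it was 0.853 in NA1a, 16.6 in NA3 and 7.45 in Ach1. Without NA3 and Ach1, 9 of the genes were tested, with 1 lower, 1 higher and a median of -0.02, and *Fos* did not pass (-0.27). The lower gene was *Egr1* (-1.06, limma adjusted p = 0.0191). The higher gene was *Dusp1*, a phosphatase that ends MAP kinase signals (adjusted p = 0.00549). Against NA2 alone 6 of 22 were higher in NA1a and 2 lower. *Atf3*, a gene of axon injury, was lower against all others (0.437 ± 0.224 against 1.11 ± 0.592) and was too low to be tested without those subtypes.

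Adhesion genes were higher in NA1a more often than lower, where 7.03% of all genes tested were higher and 7.88% lower. Of 50 contactins, protocadherins and cadherins, 48 were in the table and 15 were tested, and 9 were higher and none lower, with a median log2 difference of 0.98. Against NA1c alone 0 of 24 such genes passed in either direction, with a median of 0.08. *Pcdh7*, a protocadherin, was 3.44, 1.99, 3.25, 4.02 and 4.89 UMIs per 10000 in NA1a against 0.937 to 1.94 in the others, 2.48-fold higher with no overlap (limma adjusted p = 2.06e-05). *Cntn3*, *Cntnap5a*, *Pcdh9*, *Pcdh10*, *Cdh6* and *Tenm2* were also higher, by 1.97-fold to 2.25-fold. After thinning 5 of the 9 passed, and without NA3 and Ach1 8 of them did. Of 8 semaphorin, netrin and slit guidance genes tested, 2 were higher and 6 did not pass (median 0.11), and without NA3 and Ach1 1 was higher (median -0.02). *Nrp1*, a semaphorin and VEGF co-receptor, was 1.76 ± 0.220 against 0.786 ± 0.116, 2.102-fold higher (adjusted p = 0.000311, thinned 0.0897). *Plxna4*, its plexin partner, was 5.16 ± 0.874 against 3.26 ± 0.568 (adjusted p = 0.0130, thinned 0.0104).

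Peptide-processing genes moved in both directions. *Pcsk1* and *Pcsk2*, the prohormone convertases of dense-core vesicles, were 1.89-fold and 1.68-fold higher, and the granins *Chga* and *Scg2* 1.61-fold and 1.49-fold higher. *Cpe*, the carboxypeptidase that trims the cut peptides, was 1.25 to 1.86 UMIs per 10000 in NA1a and 2.49 to 3.21 in the others, without overlap (log2 difference -0.92, limma adjusted p = 0.000614). With those 4 higher and 1 lower of 14 tested, the median of the list was 0.22, where 7.03% of all genes tested were higher and 7.88% lower. None of the 5 passed when thinned, with *Chga* at an adjusted p of 0.0505 and *Cpe* at 0.0677.

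Of 15 genes of noradrenaline handling, 12 were tested, 1 was higher and 1 lower, with a median of -0.18, where 14.9% of all genes tested passed in either direction. *Slc18a2* was 10.3, 10.5, 11.2, 12.3 and 14.5 UMIs per 10000 in NA1a against 6.68 to 8.01 in the others, 1.55-fold higher without overlap (limma adjusted p = 0.00755, thinned 0.0418). *Ddc*, aromatic amino acid decarboxylase, was 4.09 ± 0.679 against 5.73 ± 0.835 (adjusted p = 0.0484, thinned 0.151). *Th* (4.88 ± 0.429 against 6.34 ± 0.933, adjusted p = 0.120), *Dbh* (9.28 ± 3.14 against 11.1 ± 0.645, adjusted p = 0.253) and *Slc6a2*, the noradrenaline transporter (12.5 ± 2.22 against 15.8 ± 2.52, adjusted p = 0.156), did not pass.

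Of the ion channels, *Scn3a*, a neuronal sodium channel, was 2.79 ± 0.379 UMIs per 10000 in NA1a against 1.36 ± 0.234 in the others, 1.98-fold higher without overlap (limma adjusted p = 0.000499). *Scn2a*, *Scn9a* and the calcium channel *Cacna1d* were higher by 1.51-fold, 1.54-fold and 1.83-fold and the sodium channel subunit *Scn2b* was lower, which made 4 higher and 1 lower of 17 sodium, calcium and HCN channels tested (median 0.14). None of these 4 higher genes passed when thinned (adjusted p of 0.129 for *Scn3a*). Of 14 potassium channel genes *Kcnmb4* was higher and *Kcnt1* and *Kcnc4* were lower. Over all genes tested 7.03% were higher and 7.88% lower, beside which the potassium channel counts are too small to set that list apart. *Kcnt1*, a sodium-activated channel, was 0.585 to 2.31 in NA1a against 1.74 to 5.27 in the others, overlapping between mice (log2 difference -1.13, adjusted p = 0.000277).

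Of 23 transcription factors of sympathetic neurons tested, 4 were higher and none lower, with a median of 0.19, where 7.03% of all genes were higher. These were *Tcf4* (5.97 ± 0.762 against 3.30 ± 0.437 UMIs per 10000), *Zbtb20* (9.21 ± 0.899 against 5.45 ± 1.51), *Sox4* and *Hand2*. *Hand2*, which sustains the noradrenergic phenotype, was 6.86 to 8.17 in NA1a and 4.72 to 5.63 in the others, without overlap (log2 difference 0.48, limma adjusted p = 0.0392), but did not pass when thinned (0.200). *Sox4* did not pass when thinned either, which left 2 of 23 higher, and without NA3 and Ach1 2 of 24 were. Against NA1b 2 of 30 were higher and 1 lower, and against NA1c 1 of 30 was higher and 0 lower. Of 23 neurofilament and cytoskeletal genes, 9 were lower, 2 higher and 12 did not pass (median -0.24), where 7.88% of all genes were lower, and 6 were lower and 1 higher when thinned. *Nefm* was 1.26 to 2.26 against 2.35 to 4.06 and *Map1a* 0.906 to 1.95 against 2.44 to 4.09, both without overlap. *Tmsb10*, which binds actin monomers, was higher at 53.2 ± 10.9 against 27.7 ± 3.03 (adjusted p = 0.00149, thinned 0.00443).

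Genes of transmitter release passed in small numbers in both directions, where 7.03% of all genes tested were higher and 7.88% lower. These counts are too small to set the list apart. *Syn1* (synapsin), *Cplx1* and *Cplx2* (complexins) and *Syt7* were lower and *Rims2* and *Rab3b* higher, of 27 tested (median -0.16). When thinned only *Cplx1* passed, and without NA3 and Ach1 none of the 27 was higher. *Akap12*, a scaffold of protein kinase A, was 0.851 to 1.41 UMIs per 10000 in NA1a against 2.74 to 3.12 in the others, 1 of 2 lower among 11 cyclic AMP genes tested, of which *Pde10a* and *Pde3a* were higher. Of 7 peptide and hormone receptors tested of 43 in the table, only *Rxfp1* passed. *Sctr* was 6.08, 6.61, 8.40, 10.5 and 7.06 in NA1a against 2.72 to 8.41 in the others (log2 difference 0.64, SE 0.22, limma adjusted p = 0.0570), overlapping between mice. *Ntrk2* was lower, 1 of 6 neurotrophic factor receptors tested. No cholinergic receptor of 3 tested passed, and adrenergic receptors were too low to be tested.

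**Figure D4:**
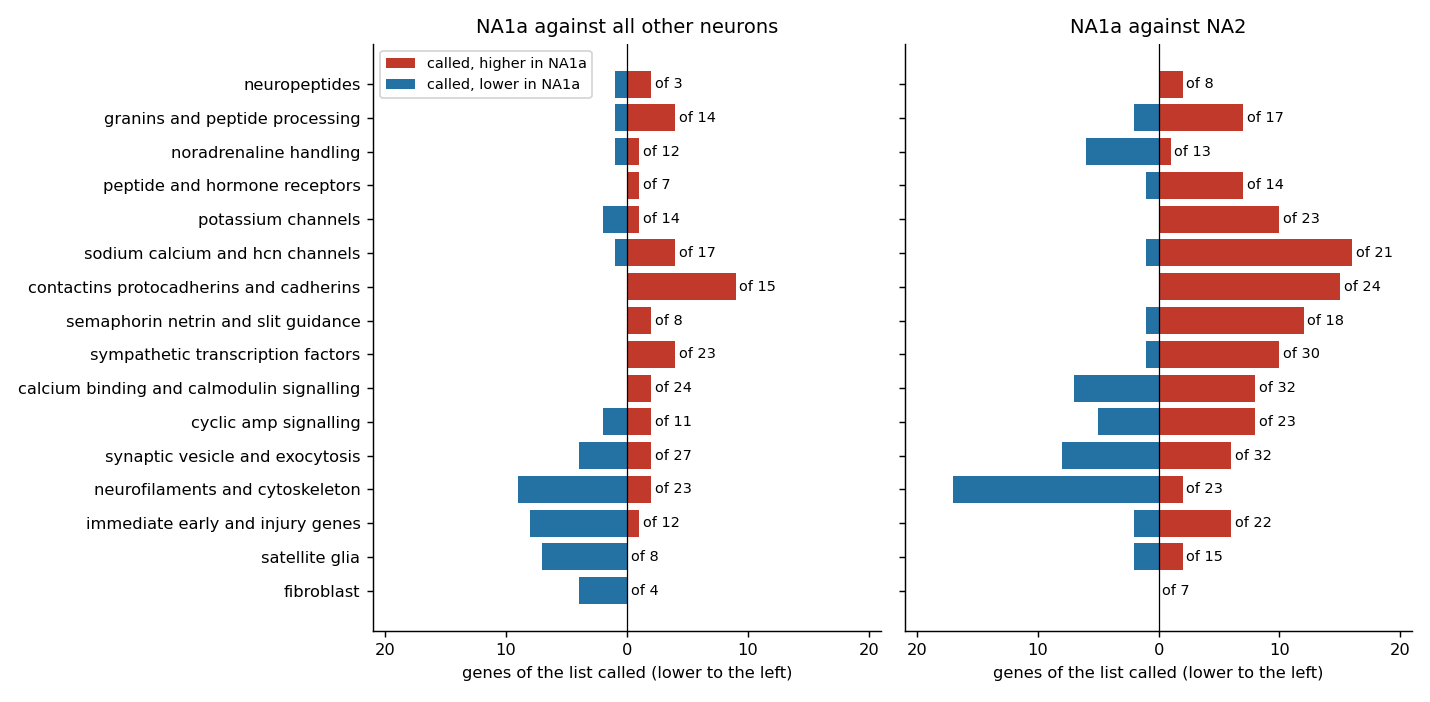
Number of genes of each list (vertical axis) called higher in NA1a (red, to the right) or lower (blue, to the left), against all other neurons and against NA2, with the number tested beside each bar. Against all other neurons 9 of 15 adhesion genes were higher, and against NA2 16 of 21 sodium, calcium and HCN channels were. Against NA1b and NA1c, which are not drawn, 1 and 0 of those 21 channels were higher.

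NA2 differed from NA1a in far more genes than the other noradrenergic subtypes did. Of 7095 genes, 3112 (43.9%) passed, 2111 (29.8%) higher and 1001 (14.1%) lower in NA1a. The median gene was 0.24 higher in NA1a on the log2 scale, and with profiles centred on their median 1537 were higher and 1662 lower. Without the shared barcodes 2493 passed in the 4 mice left, 1767 higher and 726 lower. Among the markers *Rxfp1* was 4.40 to 6.64 UMIs per 10000 in NA1a against 0.245 to 1.97 in NA2, 8.68-fold higher (limma adjusted p = 3.68e-11), and *Epha5* 16.2 to 28.3 against 3.41 to 6.71, 4.24-fold higher. *Npy* was 2.04-fold higher, at 72.5 to 93.3 against 31.2 to 50.9 (adjusted p = 2.19e-05), and *Pcp4* 3.22-fold higher, all without overlap. *Gal* was 8.64 to 18.2 in NA2 and overlapped with NA1a. It was 1.65-fold higher (adjusted p = 0.0105), but did not pass when thinned (0.106), when centred (0.144) or without replicate 3.

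The genes furthest above NA2 were mainly noncoding RNAs. *Meg3*, the imprinted noncoding RNA that many neurons express, was 250.4, 306.2, 302.8, 287.0 and 184.9 UMIs per 10000 in NA1a against 8.72 to 17.7 in NA2, 19.7-fold higher (limma adjusted p = 2.17e-18). *Mirg*, from the same imprinted cluster, was 2.77 ± 0.143 against 0.0421 ± 0.0605. *Snhg11* was 85.7 to 128.9 against 2.97 to 8.82 and *Kcnq1ot1*, the imprinted antisense RNA of *Kcnq1*, 12.0 to 16.4 against 0.225 to 1.28. *Lncpint* and *Miat* were also in this group, with *Eml5*, *Plekha5* and *Ryr2*, the calcium release channel of the endoplasmic reticulum (3.68 ± 0.295 against 0.228 ± 0.315). *B430010I23Rik* was at 0 in NA2 in all 5 mice, so its fitted difference depends on the pseudocount.

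The genes furthest below NA2 were *Mgst3*, *Ddah1*, *Pfn1*, *Mrpl36*, *Atp5e*, *Gpx1*, *Actb*, *Phlda3*, *Gpx4* and *Rps3a1*, many of them short genes of metabolism, protection from peroxides and the cytoskeleton. *Actb* (beta-actin) was 3.61, 2.22, 5.01, 4.64 and 6.76 UMIs per 10000 in NA1a against 14.1 to 34.4 in NA2, and *Gpx4*, which reduces lipid peroxides, 1.87 to 3.24 against 9.53 to 14.5. Both were without overlap, and the log2 differences of the 10 genes ran from -3.03 to -2.12. *Atp5e*, a subunit of ATP synthase, was 1.43 ± 0.198 against 7.65 ± 1.11.

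Sodium, calcium and HCN channel genes were mostly higher in NA1a than in NA2. Of 21 tested, 16 were higher and 1 was lower (median 1.43, beside 0.24 over all genes, of which 29.8% were higher), and centred profiles gave 14 and 2. *Scn8a* was 1.71 to 3.22 UMIs per 10000 against 0 to 0.459, *Scn2a* 1.87 to 2.89 against 0 to 0.429 and *Scn3a* 2.37 to 3.22 against 0.245 to 0.858. Of 23 potassium channels 10 were higher, none lower and 13 did not pass (centred 8 and 1), of 24 contactins, protocadherins and cadherins 15 and none (centred 15 and 2), and of 18 guidance genes 12 and 1 (centred 11 and 1). Against NA1b and NA1c the median log2 differences were -0.40 and -0.21 for potassium channels and -0.25 and -0.22 for guidance genes. *Sema6d*, a semaphorin, was 5.09 to 7.35 against 0.592 to 2.04, and *Sctr* 6.08 to 10.5 against 0.672 to 1.63. The cytoskeletal list went the other way, with 17 of 23 lower and 2 higher (centred 19 and 1). Of 13 noradrenaline genes 6 were lower and 1, *Slc18a2* (11.8 ± 1.73 against 3.88 ± 1.27), higher, while *Th* was 4.40 to 5.32 in NA1a and 6.11 to 10.6 in NA2 (adjusted p = 0.000436).

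The difference from NA2 went with the length of the gene. With genes divided by annotated span into 4 groups of like number, the median log2 difference was -0.38 in the shortest (up to 11.5 kb), 0.05 and 0.42 in the next, and 0.92 in the longest (from 69.4 kb), where 927 genes were higher and 68 lower in NA1a against 193 and 499 in the shortest. Across 7039 genes the correlation with log10 span was r = 0.416, and genes are not independent replicates. It was 0.214 against all other neurons, -0.136 against NA1b and -0.239 against NA1c. Of 66 long intergenic noncoding RNAs tested, 43 were higher than in NA2 and 3 lower, where 29.8% of all genes were higher and 14.1% lower. Against NA1b 2 of the 66 were higher and 4 lower, and the counts against NA1c were the same. NA2 neurons also had a median of 2461 UMIs and 6.25% mitochondrial RNA, against 6524.5 and 1.69% in NA1a, and in each of the 5 mice NA1a had the lower mitochondrial share (exact sign-flip permutation p = 0.0625, two-sided). With neurons thinned to 2000 UMIs 1593 genes passed in the 4 mice left, 1128 higher and 465 lower, and the part of RNA quality was not tested.

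**Figure D5:**
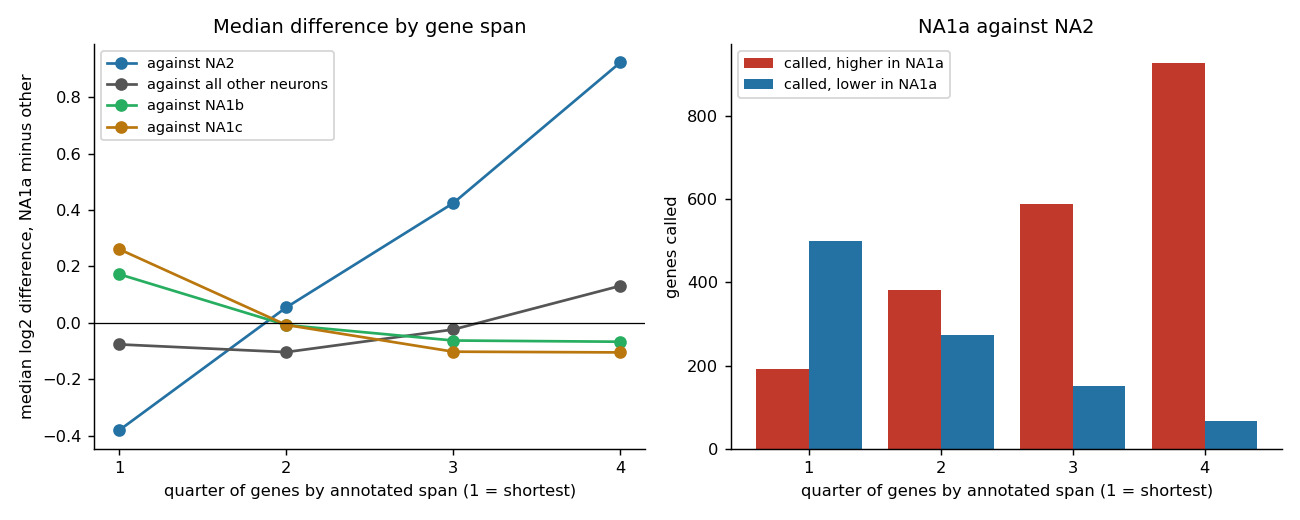
Left, median log2 difference of NA1a from other groups (vertical axis) in 4 groups of genes by annotated span (horizontal axis, 1 is the shortest). Right, genes called higher (red) and lower (blue) against NA2 in the same groups: 193 higher and 499 lower in the shortest, and 927 higher and 68 lower in the longest.

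Ach2, cholinergic neurons, could be compared in replicates 1 and 4 only. Of 7095 genes 356 (5.02%) passed, 240 (3.38%) higher and 116 (1.63%) lower in NA1a, and 327 passed without the shared barcodes, 230 higher and 97 lower. *Npy* was 77.6 and 80.6 UMIs per 10000 in NA1a of those mice and 4.62 and 6.91 in Ach2 (13.5-fold over the fit, limma adjusted p = 1.83e-14), *Gal* 22.1 and 27.2 against 1.13 and 3.75, and *Rxfp1* 4.40 and 6.30 against 0.0892 and 0.0999. *Itga1*, the collagen-binding integrin alpha1, was 3.35 and 5.62 against 0.0413 and 0.216, and *Fst* and *Tenm2* were also among the 5 furthest higher. *Pcp4*, 8.33 and 6.12 against 1.36 and 4.26, passed (adjusted p = 0.0235) but not without the shared barcodes (0.0552) or thinned (0.149). Without replicate 1, which left 1 Ach2 mouse assumed to vary like the other groups, 142 genes passed.

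The genes furthest below Ach2 were the peptides *Cartpt*, *Vip* and *Calca* and the basement membrane collagens *Col4a1* and *Col4a2*. *Cartpt*, the precursor of the CART peptide, was 0.0643 and 0.119 UMIs per 10000 in NA1a of replicates 1 and 4 against 27.3 and 14.4 in Ach2. *Vip* was 2.12 and 0.215 against 55.8 and 35.6. *Calca*, calcitonin gene-related peptide, was at 0 in NA1a in all 5 mice and 4.69 and 2.72 in Ach2. Of 8 neuropeptide genes tested, 3 were higher in NA1a and 5 lower, where 3.38% of all genes tested were higher and 1.63% lower. Only 2 of the listed neuropeptides reached 0.5 UMIs per 10000 in pooled NA1a neurons. Genes near 0 in NA1a, as *Calca* was, entered the test through other groups, so the direction of such calls was not free. *Slc18a2* was 10.3 and 12.3 against 1.06 and 2.05 (limma adjusted p = 2.49e-11), and 8 of 13 noradrenaline genes were higher with none lower (median 1.21, beside 0.11 over all genes), while *Dbh*, 6.99 and 9.30 against 7.11 and 3.42, did not pass (adjusted p = 0.116).

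Ach1 and Glut reached 10 neurons in 1 mouse and in none, so they are compared by pooled values without a test. The pooled *Npy* level was 65.7 UMIs per 10000 in NA1a, 43.2 in Ach1 and 13.8 in Glut. *Gal* was 21.4, 9.28 and 7.19, *Rxfp1* 5.04, 1.72 and 0.266, and *Pcp4* 5.82, 1.73 and 0.0866. Above Ach1 the furthest genes were *B430010I23Rik*, *Rbm4b*, *Cntn5*, *Scube1* and *Xkr6*, with *Cntn5* at 3.06 against 0.263. Below Ach1 they were *Sparc*, *Dcn*, *Lum*, *Apod* and *Smoc2*, genes of the matrix and of fibroblasts, with *Dcn* (decorin) at 0.421 against 38.6, and the fibroblast list summed to 1.94 in NA1a and 76.2 in Ach1. Above Glut they were *Pcp4*, *Cntn5*, *Col5a3*, *Neat1* and *C130073E24Rik*. Below Glut they were *Ddah1*, *Calca*, *Scn11a*, *Scn10a* and *Areg*, of which *Scn10a* and *Scn11a*, sodium channels known from pain-sensing neurons, were 0.00557 and 0.0356 in NA1a against 2.101 and 3.16.

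In the median gene, the NA1a profiles of the 5 mice differed by little more than the sampling of neurons, but some abundant genes differed by far more. Over 3799 genes the median SD of the log2 level among the 5 mice was 0.332, beside 0.305 that the spread of neurons within a mouse would give, and 8 genes exceeded 1. These were *Vip*, *Gm42418*, *Cox20*, *Npas4*, *Slc48a1*, *Gsk3a*, *Gm47283* and *Gm10076*. *Gm42418*, a predicted gene that overlaps ribosomal RNA, was 440.9 UMIs per 10000 in replicate 5 and 46.2 to 56.6 in the other mice, an SD of 1.37 where the spread of neurons would give 0.180. In all other neurons it was 576.7 in replicate 5 and 61.1 to 117.3 in the other mice, so its rise there was not particular to NA1a. The mitochondrial *mt-Atp6* had an SD of 0.760 beside 0.265 and the ribosomal *Rps29* one of 0.688 beside 0.136, both chosen after their values were seen. *Gsk3a*, a kinase of glycogen metabolism, was 0.0493 in replicate 5 and 0.508 to 0.692 in the rest.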

How the data were processed

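The deposited table holds, for 19224 genes in 1303 neurons, the natural log of 1 plus UMIs per 10000, which the authors made with Seurat after alignment with Cell Ranger 2.1.1 to mm10 and their own filters, and before integration. No doublet step is named in the sources used here and none was applied. Subtypes and mouse names are the authors' own. UMIs were recovered from the smallest step of each neuron (100% of values above 0 within 0.01 of a whole UMI).

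Values were turned back to UMIs per 10000 and averaged over the neurons of a subtype in each mouse with at least 10 of them. limma 3.58.1 (R 4.3.3) was fitted with an intensity trend on log2(mean + 0.1), so that low genes' folds are understated, with the mouse as a block, since both profiles come from the same animal. Genes were tested if they reached 0.5 UMIs per 10000 in a number of profiles equal to the size of the smallest group. A gene could thus enter through 1 group alone, and the direction of its call was then not free. One fit set NA1a against all other neurons, and another held all subtypes, which shared their spread. P-values were adjusted by Benjamini-Hochberg over all genes of a fit, with a threshold of 0.05. Profiles of NA1a and of the other neurons of a mouse deviated together with r of 0.0637 to 0.300. In replicates 1 and 2 these r (0.151 and 0.0836) were below the highest r with another mouse (0.181 and 0.0896), so the pairing was weak there. The script was tested on simulated data. NA1a neurons held 173062 to 377913 UMIs per mouse.

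Genes were named by rule: the 5 markers, the 10 largest called differences in each direction with the same sign in every mouse (5 for Ach2, and 5 of pooled Ach1 and Glut values among genes with a mean of at least 1 UMI per 10000), the 4 members of each list with the smallest p and any member highest in NA1a, the 10 with the largest spread among mice and the 5 most like *Npy* and *Gal*. Other called list members were named after their values were seen, and some are not reported here. The members, markers and lists were chosen with earlier results of these data known. The annotation used for spans was GRCm38.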

Additional observations from a re-analysis of the deposited data

Results flagged for a closer look

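Of 55 quantities of NA1a tested over the 5 mice, 9 (16.4%) had 1 mouse far from the others in a test where chance gives about 1 in 20, but 10 of the genes were chosen for their spread among mice, so the share cannot be read against that rate. *Gm26699* was 1.39 UMIs per 10000 in replicate 2 and 0.526 to 0.763 in the other mice, and *Igfbp6* was 0.372 in replicate 2 and 0.0262 to 0.0972 in the others. *Vip* was 2.12 in replicate 1 and 0.0325 to 0.215 elsewhere, and *Cryab* 0.543 in replicate 1 and 0.0216 to 0.121 elsewhere.

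Replicate 5 stood apart in 5 of the 9. Its NA1a neurons had a median mitochondrial share of 5.82% (others 0.985% to 1.82%), 60.9% of them held all 5 markers (others 72.5% to 76.0%), *Lncpint* was 3.19 UMIs per 10000 (others 1.55 to 1.96), *Gsk3a* 0.0493 (others 0.508 to 0.692) and *Gm42418* 440.9 (others 46.2 to 56.6). *Gm42418* was also high in the other neurons of replicate 5, at 576.7 against 61.1 to 117.3 in those of the other mice. These values of 1 library moved together, and their cause was not tested. Without replicate 5, 611 genes passed against all other neurons.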

How the results depend on the processing

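Fits were repeated with 1 choice changed at a time, which could change the mice that entered. Against all other neurons the 579 calls became 355 with no filter on low values, 1243 on means of the natural log values and 149 with neurons thinned to 2000 UMIs, and 333 to 611 with 1 replicate left out (340 without replicate 1 and 333 without replicate 4). Against NA2 thinning gave 1593 and a minimum of 5 neurons 1719. Against Ach2 these gave 174 and 941, and leaving out 1 replicate 142 to 374. Against NA1b the 247 calls became 400 with a pseudocount of 1, 153 without the filter, 544 on natural log means, 73 thinned, 40 with a minimum of 5 neurons and 92 to 201 with 1 replicate left out (92, 153 and 156 without replicates 1, 4 and 5). Against NA1c the 310 became 146 without the filter, 882 on natural log means, 68 thinned, 11 with a minimum of 5 neurons and 70 to 211 with 1 replicate left out (70 and 120 without replicates 1 and 4), and against NA3 769 when thinned. Thinning lowered the mean share of NA1a neurons with all 5 markers from 71.5% to 35.6% and raised the median SD among mice from 0.332 to 0.520. Thinning removes UMIs by construction and left 4 mice for NA2, and the minimum of 5 neurons raised the mice for Ach2 from 2 to 5. The cause of the other changes was not tested.

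The fit without the replicate block called 426 genes against all other neurons, 3006 against NA2 and 349 against Ach2, within 1.5 times of the counts with the pairing by mouse. Without it *Chga*, *Scg2*, *Ddc*, *Ache*, *Scn2b*, *Kcnmb4*, *Pde3a* and *Hand2* missed the threshold against all other neurons, with limma's adjusted p from 0.0557 to 0.130, and no other call of a named gene changed. Of 78 named genes called against all other neurons, 46 missed the threshold in at least 1 alternative, 32 of them when thinned, and none changed direction. Against NA2 *Gal* and *Phlda3* of 25 did, against Ach2 *Pcp4* of 13, and against NA1c *Npy*, *Gal* and *Pcp4* in some. The settings without shared barcodes and without NA3 and Ach1 were chosen after the data were seen. A fit with all mouse names was not run, since 3 names match no single sample. Levels near 0.5 UMIs per 10000 rest on few UMIs, and 5 mice of 1 condition limit every comparison.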
